A study of Arabidopsis thaliana with 24 samples.

Results

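The comparison described here sets shoots after 1 h in mannitol against shoots after 0.5 h. It was chosen by the samples' labels: 4 of the 24 arrays of the series, 2 at each time, were taken as shoots at 1 h and at 0.5 h. All plants were Arabidopsis thaliana, accession Col-0, with no transgene or mutation named, and all stood in medium brought to 300 mM mannitol. They were 16 days old, and mannitol was added 3 h into the light of a 16 h day. The other 20 arrays hold shoots at 3, 6, 12 and 24 h and roots at all 6 times, with 2 arrays for each organ and time. The rafts carrying the plants were lifted out while mannitol was stirred into the medium, so the 0.5 h plants had also been handled shortly before. Untreated plants were not analysed here. A change between 1 h and 0.5 h is therefore a change over time in mannitol, and time in mannitol cannot be told apart from time of day or from time since handling. Nothing in the labels states whether replicates 1 and 2 were grown apart, so a p-value here weighs a change against the spread of these arrays alone.

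Mannitol is a sugar alcohol that lowers the water potential of the medium, and plants placed in it find it harder to take up water. Loss of turgor is followed by calcium signals, by the hormone abscisic acid, and by the build-up of protective proteins and solutes. Shoots adjust growth and sugar use at the same time, and the cell wall is remodelled as growth slows or resumes.

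Each array gave 1 signal intensity per probe set, a group of probes for a transcript. Of the 22810 probe sets, 16814 were tested. Changes are differences of log2(signal + 8), which understate the change of weak signals, and a probe set was called changed at a Benjamini-Hochberg adjusted p under 0.05 from limma fitted over all 24 arrays. Only 9206 of the tested probe sets name exactly 1 gene in the annotation used here, and a gene is given by its locus number where the gene table gives it no symbol. Replicates correlated at r = 0.98 at 1 h and at 0.973 at 0.5 h, while arrays of different times correlated at 0.94 to 0.956, all across probe sets. The samples behaved as shoots: the summed signal of 6 green-tissue markers was 25468 and 26384 at 1 h and 23958 and 27094 at 0.5 h, while root arrays of both times held 319 to 330. The 3' to 5' ratio of the first actin control, a sign of RNA quality, was 7.05 and 8.67 at 1 h, against 7.12 and 6.42 at 0.5 h. For the second actin control it was 2.8 and 2.44 at 1 h, against 2.41 and 2.42 at 0.5 h. The 2.8 of replicate 1 of 1 h was the highest of the 24 arrays. Both GAPDH controls lay between 0.947 and 1.49 on the 4 arrays. The median signal of the 4 arrays lay between 38.4 and 40.6.

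Between 0.5 h and 1 h, 1486 probe sets changed in shoots, 8.84% of those tested. Of these, 720 were higher at 1 h (4.28%) and 766 were lower (4.56%). At least 2-fold changes numbered 298 rises (1.77%) and 408 falls (2.43%), and the falls reached further than the rises. The median change over all tested probe sets was 0.03. The total depended on single arrays: it was 928 and 936 without replicate 1 and 2 of 1 h, 1473 without replicate 1 of 0.5 h and 856 without replicate 2 of 0.5 h. The near-even split depended on the arrays too, with 363 higher and 565 lower without replicate 1 of 1 h, and 424 higher and 567 lower when only shoot arrays were fitted. The 2 arrays of 0.5 h were 2-fold apart on 445 tested probe sets, with replicate 2 the higher on 310 of them. The 2 arrays of 1 h were 2-fold apart on 245, with replicate 2 the higher on 52. Among the 298 rises, 73 had 0.5 h arrays 2-fold apart, against 13 among the 408 falls. In tissue samples such as these, fewer cells of a type and less RNA per cell cannot be told apart.

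Genes of sugar starvation, a group known to be high in darkness or when sugar runs short, fell at 1 h. Of them, 2 were among the 15 largest falls of probe sets naming 1 gene. AT2G20670 had signals of 22.2 and 21.6 at 1 h, against 1432 and 1664 at 0.5 h. This was the largest fall among probe sets naming 1 gene, 52.0-fold on the log2(signal + 8) scale (-5.70 ± 0.35, SE; adjusted p = 1.67e-08). AT5G19120 had signals of 106 and 95.1 at 1 h, against 1533 and 1786 at 0.5 h. AT3G15450 had signals of 529 and 577 at 1 h, against 3249 and 3446 at 0.5 h. In each of these 3 genes both arrays of 1 h lay far below both arrays of 0.5 h. AKINBETA1, a regulatory subunit of the energy-sensing kinase SnRK1, stood at 136 and 169 at 1 h, against 385 and 478 at 0.5 h. ATL8, a RING-type ubiquitin ligase, stood at 28.5 and 14.04 at 1 h, against 58.1 and 104 at 0.5 h. BZIP53, a transcription factor that activates amino acid breakdown genes under low energy, fell less, by 0.67 ± 0.12. Members of this list, and of the other lists here, were chosen with earlier results of these data known, so the counts are a description. In all, 6 of the 8 tested members of the sugar starvation list fell, beside 4.56% of all tested probe sets. The median change of the 8 was -1.53, beside 0.03 over all tested probe sets. The remaining members were enzymes of branched-chain amino acid breakdown: MCCA changed by -1.03 (adjusted p = 0.0653) and IVD by -0.68 (adjusted p = 0.0916). The count of falls was 6 or 7 when any 1 of the 4 arrays was left out.

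These genes then parted. AT2G20670, AT5G19120, AT3G15450, AKINBETA1 and ATL8 were still called lower than at 0.5 h at 3, 6, 12 and 24 h. AT5G19120 stayed near its 1 h level, with mean signals of 91.4, 129, 88.1 and 78.2 at 3, 6, 12 and 24 h. AT2G20670 regained part of its signal, with means of 118, 279, 116 and 271 at the same times. BZIP53 crossed the other way and was 0.89 ± 0.12 higher at 24 h than at 0.5 h (adjusted p = 7.42e-06), and IVD, which had not passed at 1 h, was 1.84 higher at 24 h (adjusted p = 3.7e-06).

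The other 13 of the 15 largest falls lay outside that list. AT5G61590, which the gene table also names DEWAX for Decrease Wax Biosynthesis, encodes an AP2/ERF repressor of wax synthesis genes. Its signals were 33.3 and 33.9 at 1 h, against 781 and 795 at 0.5 h, a 19.1-fold fall (-4.26 ± 0.21, adjusted p = 1.9e-09). Its mean signal then came back to 538 at 6 h and was 112 at 24 h. WSD1, an enzyme that makes wax esters of the cuticle, moved the other way, with 82.7 and 77.3 at 1 h against 15.9 and 5.597 at 0.5 h (2.29 ± 0.22). WSD1 went on to mean signals of 204, 174, 243 and 229 at 3, 6, 12 and 24 h. It was the 1 tested member of the cuticle and wax list, and DEWAX the 1 tested member of the AP2/ERF list.

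AT1G33055, of the low-oxygen list, all but vanished. Its signals were 1.94 and 3.01 at 1 h, against 210 and 297 at 0.5 h (-4.62 ± 0.46, adjusted p = 2.99e-06), and its means stayed at 3.25, 13.3, 16.7 and 20.8 at 3, 6, 12 and 24 h. PDC2, a pyruvate decarboxylase of ethanolic fermentation, rose instead, with 140 and 124 at 1 h against 36.8 and 62.2 at 0.5 h. Its change of 1.32 ± 0.29 (adjusted p = 0.00643) no longer passed without replicate 1 of 1 h (adjusted p = 0.0577) or replicate 1 of 0.5 h (0.0770). PDC2 reached a mean of 675 at 6 h. The third tested member of the list, AT3G10040, changed by -1.13 (adjusted p = 0.134), so 1 of 3 rose and 1 fell, beside 4.28% and 4.56% of all tested probe sets.

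Among the other large falls, AT1G23390 had signals of 113 and 189 at 1 h, against 2081 and 2257 at 0.5 h. AT3G07350 had 28.3 and 30.5 at 1 h, against 387 and 357 at 0.5 h. AT1G25550 had 81.6 and 73.7 at 1 h, against 531 and 653 at 0.5 h. No overlap of the arrays between times was a condition for naming these 3 loci. The gene table names none of them, and all were called lower at every later time. Of the 15 largest falls, 14 lasted in this sense, beside 56.6% of all falls of at least 2-fold. Among such falls naming 1 gene, from which the 15 were drawn, 122 of 197 lasted. The ranking and the later calls share the 0.5 h arrays, so the count is a description. The 1 of the 15 that did not last, AT5G11070, was back at its 0.5 h level at 12 h (-0.002 ± 0.238). It was lower again at 24 h (-1.45). AT3G62950 had 2.42 and 8.30 at 1 h, against 113 and 149 at 0.5 h.

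**Figure D1:**
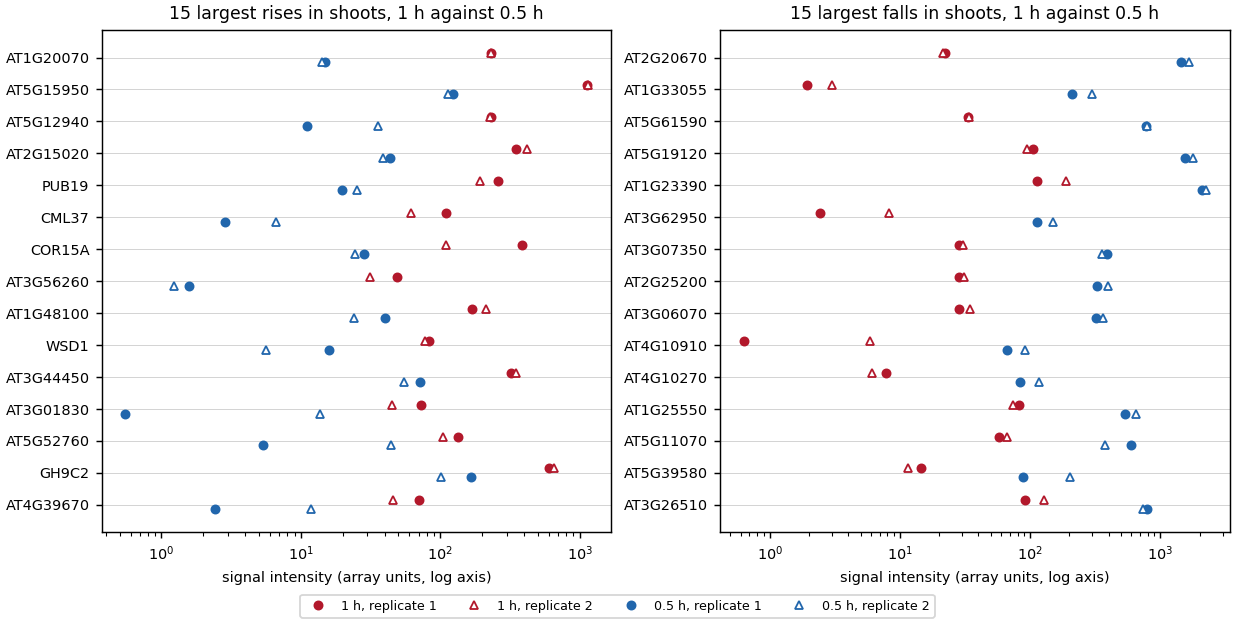
Signal intensity on each of the 4 shoot arrays (log axis, array units) of the 15 largest rises and the 15 largest falls among probe sets naming 1 gene. Red marks are 1 h and blue marks 0.5 h, filled circles replicate 1 and open triangles replicate 2. Genes were chosen so that the red marks lie on one side of the blue ones. The 0.5 h replicates lie wide apart for several rises, such as AT3G01830 with 0.550 and 13.7.

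Neighbouring loci fell together at 2 places, chosen after their values were seen. AT4G15660, AT4G15680, AT4G15690 and AT4G15700 lie within a run of 5 neighbouring protein genes. AT4G15660 had signals of 10.6 and 8.43 at 1 h, against 61.6 and 93.3 at 0.5 h. AT4G15690 had 6.89 and 18.21 at 1 h, against 67.7 and 62.7 at 0.5 h. The 4 changes lay between -1.76 and -2.26, and all 4 were called lower at each later time, with changes of -2.48 to -3.08 at 24 h. AT4G15680 did not pass without replicate 1 of 1 h (adjusted p = 0.143) or without replicate 1 of 0.5 h (0.0674). On another chromosome AT3G62930 fell by 1.77 ± 0.27 beside the fall of 3.40 ± 0.35 of AT3G62950, while AT3G62960 changed by -0.59 (adjusted p = 0.177). How far such neighbours share probe sequence was not tested.

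The largest rise among probe sets naming 1 gene was that of AT1G20070, a locus the gene table does not name. It had signals of 232 and 231 at 1 h, against 14.8 and 14.2 at 0.5 h, 10.6-fold higher (3.41 ± 0.36, adjusted p = 5.79e-06). AT5G15950, of the polyamine list, had 1119 and 1148 at 1 h, against 123 and 113 at 0.5 h (3.18 ± 0.20, adjusted p = 1.67e-08). Polyamines are small charged metabolites that build up under many stresses. The other tested members of the list did not pass: SAMDC, which makes the aminopropyl donor for polyamines, changed by -0.23 (adjusted p = 0.209) and AT3G25570 by 0.15 (adjusted p = 0.751). AT5G15950 had means of 662, 126, 133 and 464 at 3, 6, 12 and 24 h, so it was near its 0.5 h level at 6 and 12 h and above it at 24 h. AT2G15020 had a like shape, with 347 and 420 at 1 h against 43.6 and 38.8 at 0.5 h, a mean of 7.29 at 12 h and of 365 at 24 h. The clock time of sampling at 24 h was close to that at 0.5 h.

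Touch and calcium genes rose in part. CML37, a calmodulin-like calcium sensor, had signals of 109 and 61.6 at 1 h, against 2.87 and 6.61 at 0.5 h (2.84 ± 0.30, adjusted p = 6e-06). By 3 h its mean was 6.21, and it did not pass against 0.5 h at any later time. AT3G01830 of the same list had 72.3 and 45.1 at 1 h, against 0.550 and 13.7 at 0.5 h. Its change of 2.26 ± 0.46 did not pass without replicate 1 of 1 h (adjusted p = 0.0522) or replicate 1 of 0.5 h (0.0565). In all 2 of the 6 tested members rose, beside 4.28% of all tested probe sets, with a median change of 0.43. Without replicate 1 of 0.5 h 1 rose and the median was 0.15, and without replicate 2 of 0.5 h 3 rose and it was 0.92; without replicate 1 of 1 h 1 rose. CML38 showed how far the 0.5 h arrays could differ for such genes: its signals were 71.7 and 52.1 at 1 h, against 27.2 and 89.5 at 0.5 h.

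The same held for stress-induced transcription factors. STZ, also known as ZAT10, a zinc-finger repressor induced by many stresses, had signals of 967 and 518 at 1 h, against 91.9 and 581 at 0.5 h. WRKY53, a factor of defence and ageing, had 238 and 211 at 1 h, against 79.6 and 278 at 0.5 h. The groups overlapped for both, and neither passed (adjusted p = 0.0709 and 0.585). WRKY22, a factor of defence signalling, did pass: it had 21.96 and 23.9 at 1 h, against 71.0 and 197 at 0.5 h (-2.04 ± 0.43, adjusted p = 0.00467). Without replicate 2 of 0.5 h its fall was 1.35 and did not pass (adjusted p = 0.112), and without replicate 1 it fell by 2.73. WRKY6 changed by -1.02 (adjusted p = 0.173), so 1 of the 3 tested WRKY genes fell, beside 4.56% of all tested probe sets.

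Dehydration-induced genes, which encode late embryogenesis abundant and other protective proteins under abscisic acid control, rose in part. PUB19, a U-box ubiquitin ligase that restrains abscisic acid and drought responses, had 258 and 193 at 1 h, against 19.8 and 25.4 at 0.5 h (2.92 ± 0.25, adjusted p = 4.71e-07). COR15A, a chloroplast protein that protects membranes from freezing and drying, had 385 and 109 at 1 h, against 28.3 and 24.5 at 0.5 h. Its neighbour COR15B had 134 and 49.0 at 1 h, against 28.2 and 20.9 at 0.5 h. All 3 rises were clear of the 0.5 h arrays, but the 1 h arrays of the COR15 pair were far apart, with replicate 1 the higher. COR15A changed by 2.64 ± 0.51 (adjusted p = 0.00234), and by 1.77 without replicate 1 of 1 h, which did not pass (adjusted p = 0.0596). COR15B changed by 1.47 ± 0.36 (adjusted p = 0.0144), did not pass without that array (0.82, adjusted p = 0.242) nor without replicate 2 of 0.5 h (0.124), and stood at 2.13 without replicate 2 of 1 h. LTI30, a dehydrin, had the same split at 1 h, with 167 and 22.4, against 36.9 and 26.6 at 0.5 h, and did not pass (adjusted p = 0.293).

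So 3 of the 9 tested members of the dehydration list rose at 1 h, beside 4.28% of all tested probe sets. This list too was chosen with earlier results of these data known. The median change of the 9 was 0.58. Without replicate 1 of 1 h 1 rose and the median was -0.06, and without replicate 2 of 1 h 5 rose and it was 0.98. At 24 h all 9 were higher than at 0.5 h, beside 25.5% of all tested probe sets, with a median of 6.44. The largest later rise belonged to a member that had not moved at 1 h: AT3G02480 had signals of 2.08 and 0.444 at 1 h, against 4.78 and 0.464 at 0.5 h, and reached a mean of 903 at 3 h and 5616 at 24 h. LEA4-5, a late embryogenesis abundant protein, had 12.6 and 2.097 at 1 h, against 3.95 and 2.295 at 0.5 h, and a mean of 3084 at 24 h. In roots the change from 0.5 h to 1 h of these 2 genes had already passed, at 2.117 (adjusted p = 0.00601) and 2.36 (adjusted p = 0.0049).

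Cell wall genes moved in both directions. EXGT-A3, an enzyme that cuts and rejoins xyloglucan, fell to 294 and 278 at 1 h, against 1230 and 1243 at 0.5 h (-2.08 ± 0.16, adjusted p = 1.46e-07). EXPA15, an expansin that loosens walls, had 135 and 150 at 1 h, against 48.9 and 44.7 at 0.5 h (1.46 ± 0.21, adjusted p = 0.00019). EXPA4, another expansin, had 96.8 and 146 at 1 h, against 51.0 and 47.8 at 0.5 h; its rise of 1.15 ± 0.27 did not pass without replicate 2 of 1 h (adjusted p = 0.155) or replicate 2 of 0.5 h (0.0844). Of the 16 tested xyloglucan enzymes and expansins, these 2 rose and 1 fell, beside 4.28% and 4.56% of all tested probe sets, with a median of 0.51, or of 0.29 to 0.35 with any 1 of the 4 arrays left out. Without replicate 1 of 1 h 2 fell. At 24 h, 8 of the 16 were lower than at 0.5 h and 2 higher, beside 33.2% and 25.5% of all tested probe sets. Outside the list, GH9C2, an endoglucanase that cuts cellulose-like chains, had 601 and 656 at 1 h, against 166 and 102 at 0.5 h (2.205 ± 0.253, adjusted p = 1.53e-05). Its signal then fell away to a mean of 38.3 at 24 h, 1.58 below 0.5 h (adjusted p = 3.67e-05).

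Hormone and clock genes were thinly covered, and 4.28% of all tested probe sets rose and 4.56% fell. GH3.3, an enzyme that conjugates auxin to amino acids, had 69.1 and 68.3 at 1 h, against 18.22 and 12.7 at 0.5 h (1.72 ± 0.32, adjusted p = 0.00165). HAT2, an auxin-induced homeodomain factor, fell by 0.92 ± 0.19, which did not pass without replicate 2 of 0.5 h (adjusted p = 0.067), so 1 of 5 tested auxin genes rose and 1 fell. The cytokinin-induced response regulator RR16 rose by 0.95 ± 0.28, the jasmonate synthesis gene OPCL1 by 0.85 ± 0.24 and the clock gene GI by 0.49 ± 0.13. With 1 array left out, RR16 and GI passed only without replicate 1 of 0.5 h and OPCL1 only without replicate 2 of 1 h, and without replicate 2 of 0.5 h RR16 stood at 0.54 and GI at 0.32. Each was 1 of 2 tested members of its list, and the other members, ARR15, JMT and HYH, did not pass (adjusted p = 0.984, 0.17 and 0.0701). QQS, an Arabidopsis orphan gene that affects starch content, had 378 and 430 at 1 h, against 97.4 and 76.6 at 0.5 h. Its change of 2.123 ± 0.575 had an adjusted p of 0.0269, but of 0.0607 to 0.164 with any 1 of the 4 arrays left out.

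Several groups showed no call at 1 h. Among 8 photosynthesis genes, 4 of ribosome biogenesis and 3 of heat shock, 0 rose and 0 fell in the limma fit. The same held for 3 gibberellin receptors of the brassinosteroid and gibberellin list and 4 reference genes. Only 8.84% of all tested probe sets were called at 1 h, so 0 calls in groups this small say little about them. At an unadjusted p under 0.05 the only 1 among these 22 genes was GID1A, at -0.43. The changes of the photosynthesis genes lay between -0.18 (PSAE-1, a photosystem I subunit) and 0.42 (LHCB4.3, a light-harvesting protein). At 24 h, 7 of these 8 and all 4 of ribosome biogenesis were lower than at 0.5 h, and all 3 of heat shock were higher, beside 33.2% of all tested probe sets that were lower and 25.5% that were higher. Lists with 1 or 2 tested members gave 0 calls for zinc fingers, osmolytes, ethylene and the cell cycle, with 1 unadjusted p under 0.05 for the zinc fingers and 1 for the cell cycle. With 1 array left out, 1 zinc finger rose without replicate 2 of 0.5 h and 1 cell cycle gene without replicate 1 of 0.5 h.

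Gene families added after the values were seen gave a mixed picture. The shares over all tested probe sets were 4.28% higher and 4.56% lower. The 3 tested genes of the ER body, a compartment of Brassicaceae that stores defence enzymes, all fell: PYK10, its beta-glucosidase, had 487 and 431 at 1 h, against 1028 and 867 at 0.5 h (-1.03 ± 0.17), NAI1, its regulator, fell by 1.21 ± 0.27, and NAI2, which is needed to form it, by 0.87 ± 0.21. NAI1 did not pass without replicate 2 of 1 h (-0.79, adjusted p = 0.133), and NAI2 not without replicate 1 of 1 h (-0.49, adjusted p = 0.208) or replicate 1 of 0.5 h (0.0601). PYK10 is also a root marker: the 2 tested root markers summed to 487 and 432 at 1 h and to 1029 and 868 at 0.5 h in shoots, against 3361 to 3823 in roots, and the other, AT5G66390, was at 0.313 to 1.36 on the 4 shoot arrays. The part of root tissue in the PYK10 value was not tested.

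Of the 7 tested ATG8 genes, whose proteins coat the membranes of autophagy, 2 fell, beside 4.56% of all tested probe sets. ATG8E had 126 on both arrays of 1 h, against 538 and 496 at 0.5 h (-1.97 ± 0.19, adjusted p = 2.66e-06), and was still 1.16 lower at 24 h. ATG8H fell by 0.76 ± 0.23 at 1 h (adjusted p = 0.0477), which passed only without replicate 1 of 1 h among the fits that left out 1 array, yet it was 2.47 higher at 24 h. By 24 h 6 of the 7 were higher than at 0.5 h, beside 25.5% of all tested probe sets, and ATG8E was the exception. Of 10 tested SWEET sugar transporters 1 rose and 2 fell, beside 4.28% and 4.56% of all tested probe sets. SWEET13 rose, with 55.0 and 67.7 at 1 h against 7.67 and 25.5 at 0.5 h (1.59 ± 0.29). SWEET2, a vacuolar member, had 162 and 204 at 1 h, against 334 and 430 at 0.5 h (-1.03 ± 0.24), and SWEET16 fell by 0.76 ± 0.16; SWEET13 was at 1.04 without replicate 1 of 0.5 h. SWEET2 did not pass without replicate 1 of 1 h (adjusted p = 0.119) or replicate 2 of 0.5 h (0.138), and SWEET16 not without replicate 2 of 1 h (0.096) or of 0.5 h (0.089).

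Of 37 tested UGT glycosyltransferases, which attach sugars to small molecules, 5 rose and 4 fell, beside 4.28% and 4.56% of all tested probe sets. The rises numbered 3 without replicate 1 of 1 h, and the falls 2 without replicate 2 of 0.5 h. UGT84A3, which acts on phenylpropanoid acids, had 94.4 and 83.2 at 1 h, against 34.8 and 34.0 at 0.5 h (1.19 ± 0.19). UGT78D2, a flavonoid and anthocyanin glucosyltransferase, had 306 and 284 at 1 h, against 142 and 130 at 0.5 h (1.08 ± 0.17). UGT85A2 had 41.7 and 34.4 at 1 h, against 126 and 103 at 0.5 h (-1.41 ± 0.17), and was back at a mean of 143 by 6 h. Of 8 tested U-box ligases 2 rose and 1 fell, and PUB19 was the only 1 of the 3 that passed in every fit with 1 array left out: PUB24, at 1.02, passed only without replicate 2 of 0.5 h (1.65) and stood at 0.39 without replicate 1 of 0.5 h, and PUB22, at -1.16, passed only without replicate 1 of 0.5 h.

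**Figure D2:**
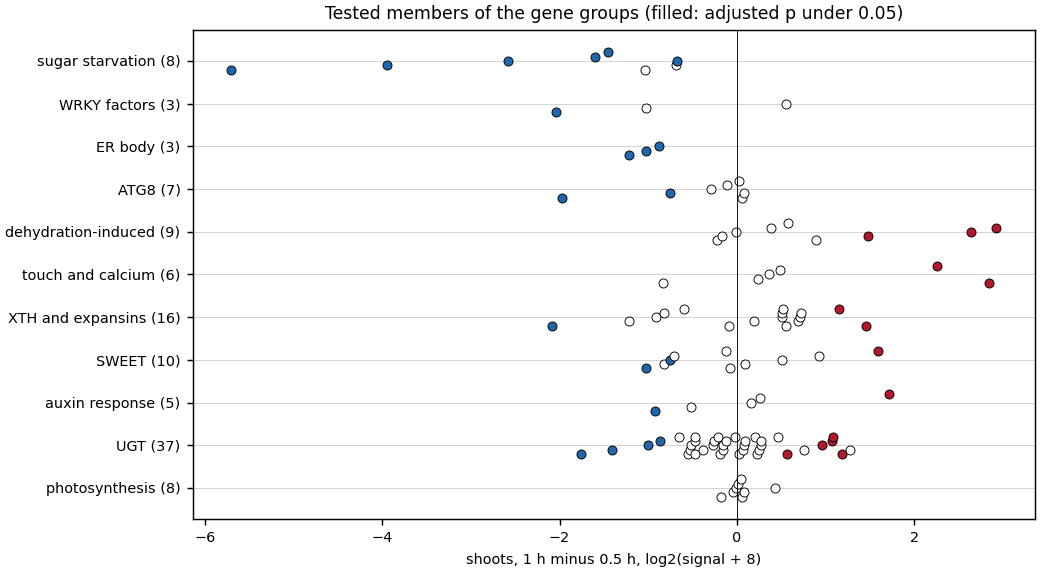
Change between 1 h and 0.5 h in shoots, on the log2(signal + 8) scale, of each tested member of 11 gene groups, with the number tested in brackets and vertical offsets for legibility only. Filled points passed an adjusted p of 0.05, red for higher and blue for lower at 1 h. The sugar starvation group has 6 of its 8 points filled blue, the dehydration-induced group 3 of 9 filled red and the photosynthesis group none filled.

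Which early changes lasted was then followed against 0.5 h at 3, 6, 12 and 24 h. These comparisons reuse the 0.5 h or the 1 h arrays that defined the rises and falls, so the counts are a description without a test. A change lasted if it was called in the same direction at all 4 later times. It turned back if at 24 h it was no longer called that way against 0.5 h and was called the opposite way against 1 h, and it crossed over if at 24 h it was called the opposite way against 0.5 h too. Over all tested probe sets, 11.1% were called higher at all 4 later times and 12.7% lower. Genes said below to lead a course were ranked only among probe sets naming 1 gene. These were 132 of the 298 rises and 197 of the 408 falls.

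Of the 408 falls, 231 lasted (56.6%), 78 turned back without crossing (19.1%), 38 crossed over (9.31%) and 61 did neither. Of the 298 rises, 117 lasted (39.3%), 90 turned back without crossing (30.2%), 40 crossed over (13.4%) and 51 did neither. The 78 that crossed over in both directions numbered 39 without replicate 2 of 0.5 h, and the 130 rises that turned back or crossed numbered 84 without replicate 1 of 1 h. At each later time taken alone, 288, 294, 299 and 286 of the 408 falls were called lower at 3, 6, 12 and 24 h, beside 18.7, 25.4, 27.4 and 33.2% of all tested probe sets. Of the 298 rises, 195, 155, 152 and 157 were called higher at those times, beside 16.9, 22.8, 25.5 and 25.5%. No later call in the same direction was seen for 85 rises and 54 falls. The rises that lasted had a median change of 1.331 at 1 h and of 2.123, 2.103, 2.266 and 1.982 at 3, 6, 12 and 24 h. Of all 298 rises, 61 were called higher at 24 h than at 1 h, and of all 408 falls 94 were called lower. The falls that lasted had a median change of -1.55 at 1 h and of -1.88, -1.88, -2.11 and -2.08 at those times. Most of what turned back had lost its call against 0.5 h by 3 h. This held for 82 of the 130 rises that turned back or crossed, and 74 of the 116 such falls. A lost call need not be a full return. Those that turned back without crossing had a median change at 3 h of 0.579 for rises and -0.567 for falls.

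**Figure D3:**
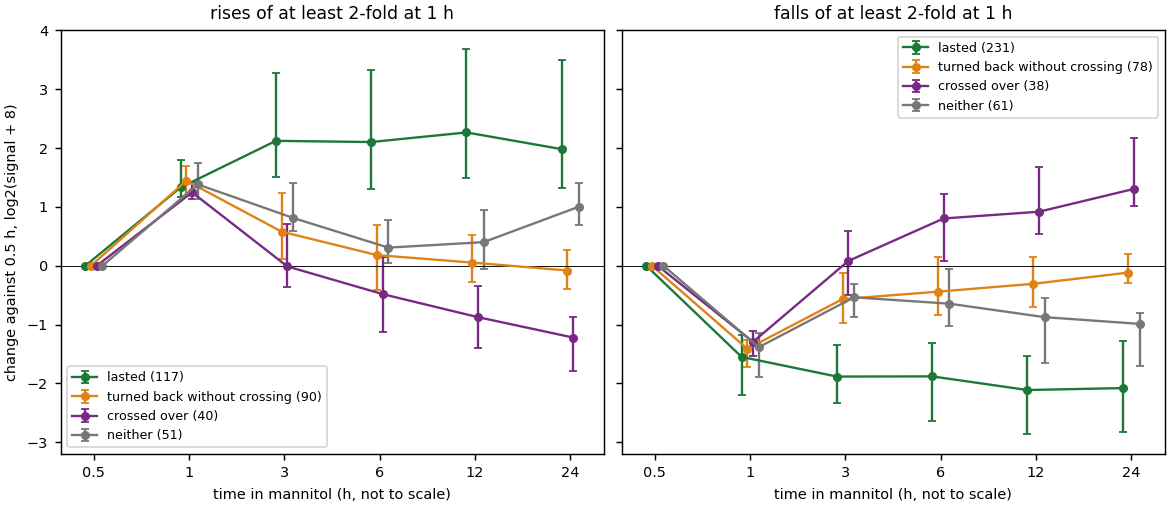
Median change against 0.5 h in shoots, on the log2(signal + 8) scale, of the early rises (left) and falls (right) by their later course, at 0.5, 1, 3, 6, 12 and 24 h, with bars from the lower to the upper quartile over probe sets and the number of probe sets in brackets. The courses are the definition of the classes, and by 3 h the median of the rises that crossed over was -0.01, against 2.123 for those that lasted.

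The rises that lasted include PUB19, COR15A and WSD1 above, and AT5G12940 and AT3G56260. AT5G12940 had signals of 231 and 228 at 1 h, against 11.1 and 35.9 at 0.5 h, and mean signals of 145, 67.3, 67.3 and 54.5 at 3, 6, 12 and 24 h, so it remained called while losing most of its rise. AT3G56260 had 48.5 and 31.5 at 1 h, against 1.57 and 1.22 at 0.5 h, and was highest at 3 h with a mean of 135. PUB19 peaked at a mean of 1430 at 3 h and was at 736 at 24 h.

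Rises that turned back without crossing were led by AT1G20070, CML37, AT1G48100, AT3G44450 and AT3G01830. CML37 was back by 3 h, whereas AT1G20070 had means of 290, 90.3, 22.8 and 13.6 at 3, 6, 12 and 24 h, the last close to 14.5 at 0.5 h. AT1G48100 had 167 and 212 at 1 h, against 39.8 and 24.1 at 0.5 h, peaked at a mean of 306 at 3 h and was at 27.7 at 24 h. AT3G44450 had 321 and 346 at 1 h, against 71.3 and 54.9 at 0.5 h, and fell below 0.5 h at 12 h, with a mean of 16.9. These rises thus ended at different times.

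Rises that crossed over were led by GH9C2, AT1G72920, BIM1, AT1G72940 and TBL26. BIM1, a partner of the brassinosteroid transcription factor BES1, had 241 and 309 at 1 h, against 83.4 and 86.1 at 0.5 h, and a mean of 55.4 at 24 h. TBL26, of a family that acetylates wall polysaccharides, had 251 and 231 at 1 h, against 106 and 65.6 at 0.5 h, and a mean of 16.8 at 24 h. AT1G72920 and AT1G72940, with 1 protein gene between them, moved in step. AT1G72940 had 568 and 359 at 1 h, against 98.0 and 233 at 0.5 h, and a mean of 89.0 at 3 h. In both loci replicate 2 of 0.5 h was the higher, and neither rise passed without replicate 1 of 1 h (adjusted p = 0.0641 for AT1G72920 and 0.102 for AT1G72940) or without replicate 1 of 0.5 h, where they stood at 1.06 and 0.94 (0.0725 and 0.0991).

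Rises of neither course, beside AT5G15950, AT2G15020 and QQS, include AT5G52760 and AT4G24380. AT5G52760 had 133 and 105 at 1 h, against 5.32 and 44.4 at 0.5 h. Its change of 2.26 ± 0.61 (adjusted p = 0.0272) was 1.27 without replicate 1 of 0.5 h (adjusted p = 0.266) and did not pass without either array of 1 h (0.145 and 0.0849). AT4G24380 had 486 and 292 at 1 h, against 76.2 and 90.8 at 0.5 h, was called neither at 3, 6 nor 12 h, and was 0.84 higher at 24 h.

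Among falls, those that turned back without crossing were led by AT1G02660, AT1G49500, EXGT-A3, AT1G26800 and SIS. AT1G02660 had 35.9 and 39.1 at 1 h, against 255 and 325 at 0.5 h, and was back at a mean of 249 by 3 h. AT1G49500, a highly expressed locus, had 375 and 646 at 1 h, against 2009 and 2289 at 0.5 h, and means of 1501 at 3 h and 2064 at 6 h. EXGT-A3 took longer, with means of 411, 492, 542 and 990 at 3, 6, 12 and 24 h. SIS, listed as Salt Induced Serine rich, had 29.0 and 67.7 at 1 h, against 171 and 182 at 0.5 h. It overshot to a mean of 617 at 3 h before it came back to 170 at 12 h and 142 at 24 h.

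Falls that crossed over ended as rises. AT3G13672, which the gene table also names SINA2, had 2.03 and 4.07 at 1 h, against 20.2 and 20.3 at 0.5 h (-1.36 ± 0.20). It then had mean signals of 214, 383, 820 and 1200 at 3, 6, 12 and 24 h, 5.40 ± 0.20 above 0.5 h at 24 h. AT5G25280 had 106 and 153 at 1 h, against 869 and 618 at 0.5 h, and means of 1306 at 12 h and 1007 at 24 h. AT2G29300 had 27.2 and 28.0 at 1 h, against 168 and 159 at 0.5 h, and a mean of 577 at 24 h. AT3G10020 and AT2G27830 completed the 5 largest, with falls of 1.54 ± 0.19 and 1.39 ± 0.18 at 1 h and gains of 0.59 and 1.19 over 0.5 h at 24 h.

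Falls of neither course, beside AT5G11070, were led by AT4G12490, AT5G60680, AT5G59080 and AT5G56100. AT5G60680 had 79.0 and 118 at 1 h, against 406 and 593 at 0.5 h, was back at a mean of 677 at 3 h and was lower again at 24 h, at 257. AT5G59080 had 40.04 and 63.1 at 1 h, against 236 and 299 at 0.5 h, did not pass at 3 h (adjusted p = 0.086), and was at a mean of 10.7 at 12 h. AT4G12490 rested on 1 array of 0.5 h: it had 13.9 and 2.87 at 1 h, against 22.9 and 190 at 0.5 h. Its change of -2.34 ± 0.66 was -1.004 without replicate 2 of 0.5 h (adjusted p = 0.523), -3.68 without replicate 1 of 0.5 h, and did not pass without replicate 2 of 1 h (0.242).

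**Figure D4:**
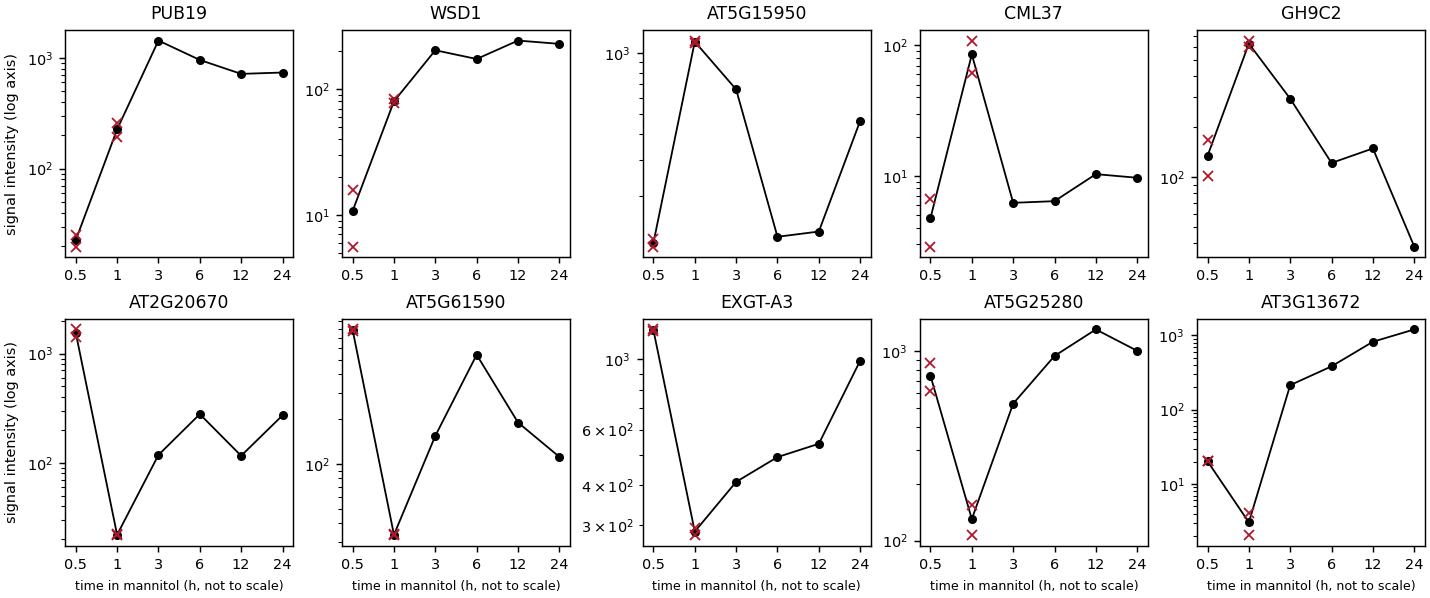
Mean signal intensity in shoots (log axis, array units, own axis for each gene) at 0.5, 1, 3, 6, 12 and 24 h in mannitol for 10 genes, with red crosses for the 2 single arrays at 0.5 h and at 1 h. PUB19 and WSD1 stayed high, CML37 was back at a mean of 6.21 by 3 h, GH9C2 ended below 0.5 h, EXGT-A3 came back slowly and AT3G13672 ended at 1200.

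Roots were sampled at the same times, at the same clock time and after the same handling. Their 1 h against 0.5 h difference was not used to choose the shoot changes, but root arrays entered the filter and the shared estimate of spread. In roots 95 probe sets were higher at 1 h than at 0.5 h (0.565%) and 28 were lower (0.167%), 123 in all, and 2082 had an unadjusted p under 0.05. Of the 298 shoot rises, 11 were called higher in roots too (3.69%), and of the 408 shoot falls 2 were called lower (0.490%). The 11 are 11.6% of the root rises and the 2 are 7.14% of the root falls. Over all tested probe sets, 1.77% were such shoot rises and 2.43% such shoot falls. The shoot rises had a median change of -0.05 in roots and the shoot falls of -0.04. The test of the difference between organs was called for 149 of the 298 rises (50.0%) and 274 of the 408 falls (67.2%), all in the direction of the shoot change, beside 285 (1.70%) and 423 (2.52%) of all tested probe sets. Those probe sets were chosen for their shoot change, which is part of that difference. The number called in both organs was 13, and 12 to 20 with 1 shoot array left out, the 20 without replicate 2 of 1 h.

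All 11 rises that roots shared were among the 117 that lasted in shoots, beside 39.3% of all 298 rises that lasted. Of the 11, 3 name 1 gene. These were picked for that overlap after their values were seen. AT1G73480 had 565 and 661 in shoots at 1 h, against 139 and 200 at 0.5 h, and root signals of 595 and 908 at 1 h, against 257 and 284 at 0.5 h. AT1G05170 had 110 and 120 in shoots at 1 h, against 31.9 and 28.7 at 0.5 h, and root signals of 107 and 108 at 1 h, against 58.6 and 71.5 at 0.5 h. AT4G12000 changed by 1.42 ± 0.27 in shoots and 1.32 ± 0.27 in roots. In all 3 the arrays of 1 h lay above those of 0.5 h in both organs. The shared falls were AT5G11070 (-2.78 in shoots, -1.13 in roots) and AT3G02910 (-1.10 and -0.69), neither of which lasted in shoots.

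A pair of genes was called in opposite directions in the organs. SIS fell by 1.802 ± 0.278 in shoots and rose by 1.45 ± 0.28 in roots, where it had 816 and 682 at 1 h, against 243 and 296 at 0.5 h. AT1G14480 rose by 1.97 ± 0.22 in shoots, with 111 and 95.6 at 1 h against 17.1 and 24.2 at 0.5 h, and fell by 1.07 ± 0.22 in roots, with 61.7 and 67.6 at 1 h against 165 and 126 at 0.5 h.

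Several of the largest shoot changes naming 1 gene were not called in roots, although AT5G11070 above was. Few probe sets were called in roots at all, 0.565% higher and 0.167% lower. Root levels at 0.5 h differed widely among the largest rises. AT1G20070 and PUB19 already had root means of 246 and 516 at 0.5 h, against shoot means of 231 and 226 at 1 h. AT5G15950 had a root mean of 102 at 0.5 h, against a shoot mean of 1133 at 1 h. AT1G33055 had 219 and 744 in roots at 1 h, against 220 and 305 at 0.5 h, so in roots it stayed at or above the level it lost in shoots, and the difference between organs was -5.25 ± 0.65 (adjusted p = 9.29e-05). AT2G20670 was low in roots at both times, with 41.4 and 86.5 at 1 h against 41.4 and 51.5 at 0.5 h, and the difference was -6.03 ± 0.49. AT5G12940 had 289 and 317 in roots at 1 h, against 374 and 375 at 0.5 h, all above its 2 shoot arrays of 1 h. CML37 had 48.6 and 35.0 in roots at 1 h, against 70.3 and 53.1 at 0.5 h, which did not pass (adjusted p = 0.555). Of the sugar starvation list 0 of 8 members passed in roots in the limma fit, with 1 at an unadjusted p under 0.05. Only 0.167% of all tested probe sets were called lower in roots, so 0 of 8 says little about this list. Of the dehydration list 2 of 9 rose in roots, beside 0.565% of all tested probe sets. WSD1 and AT2G15020 were at 5.48 or lower on all 4 root arrays of these times.

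**Figure D5:**
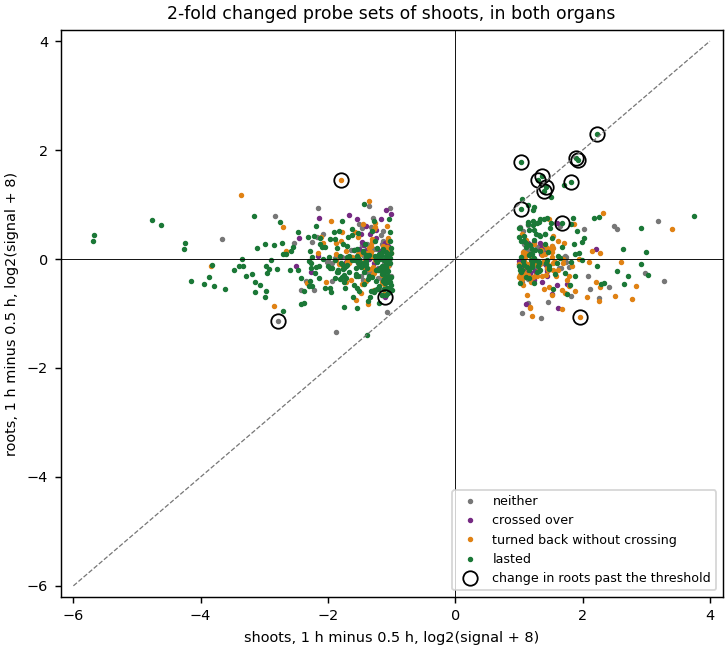
Change between 1 h and 0.5 h in shoots (horizontal) and in roots (vertical), both on the log2(signal + 8) scale, of the 706 probe sets changed at least 2-fold in shoots, coloured by their later course in shoots. The dashed line marks equal change, and open circles mark the 15 probe sets whose change in roots passed. Most points lie near 0 on the root axis, and 11 circled points at the upper right are green, the colour of rises that lasted.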

How the data were processed

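The values are signal intensity per probe set as the authors deposited them, on a linear scale. MAS5 is named in the submitters' processing notes, its version and scaling target being not given in the sources used here. RNA was labelled with biotin, per the labels. From the deposited intensities log2(signal + 8) was taken. After 64 control probe sets were set aside, a probe set was tested if it exceeded the 40th percentile of signals on 2 or more of the 24 arrays (16814 passed and 5932 did not). A limma model (version 3.58.1, R 4.3.3) gave each of the 12 groups a mean, with an intensity trend in the variance, 12 residual and 5.29 prior degrees of freedom, and Benjamini-Hochberg adjustment over the tested probe sets within each comparison. The fit was tested on simulated arrays with independent noise of the same spread in all groups. It recovered 12 of 50 log2 changes of 0.5, 47 of 50 of 1 and 50 of 50 of 2. False calls numbered 8 among 16614 unchanged probe sets. Replicates as uneven as those of 0.5 h were not simulated. SEs come from limma, and the number of arrays limits their precision. Settings tried were pseudocounts, scalings, filters, subsets of arrays and a replicate block.

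The annotation gave 1 gene for 13513 probe sets, several for 503 and none for 8730; 13436 matched RefSeq's TAIR10.1 gene table, which supplied symbols. The brightest probe set stands for a gene in a list. The 28 lists held 568 genes, of which 92 were tested, and 4 lists had none. Members and lists were chosen with earlier results of these data known, and 5 families were added after the values were seen. The naming rule took, from called probe sets with 1 gene and no overlap between the 4 arrays, the 15 largest rises and falls and the 5 largest of each later course, plus members of the fixed lists. Replicate numbers were not taken as pairs, and the fit had no block. Deviations of same-numbered arrays at 1 h and 0.5 h correlated at -0.107. Over the 66 pairs of groups the correlation ran from -0.165 to 0.349, and 13 exceeded 0.1. Whether arrays of the same number share an origin was not tested.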

Additional observations from a re-analysis of the deposited data

Results flagged for a closer look

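The change between 0.5 h and 1 h differed between shoots and roots for 708 probe sets (interaction contrast in limma, adjusted p under 0.05). Among the 5 largest shoot rises, the shoot change minus the root change was 2.86 for AT1G20070, 2.48 for AT5G15950, 3.34 for AT5G12940, 3.24 for AT2G15020 and 2.35 for PUB19. Among the 5 largest shoot falls it was -6.03 for AT2G20670, -5.25 for AT1G33055, -4.45 for AT5G61590, -3.47 for AT5G19120 and -3.71 for AT1G23390. The 10 were the largest each way among called probe sets naming 1 gene. All were picked for their shoot change, and each passed with an adjusted p of 0.00275 or less. At 0.5 h the root means of AT1G20070, AT5G12940 and PUB19 were already 246, 374 and 516. Their shoot means at 1 h were 231, 230 and 226. AT5G15950 and AT2G15020 had root means of 102 and 2.78 at 0.5 h, against shoot means of 1133 and 383 at 1 h.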

How the results depend on the processing

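The 1486 calls became 544 with the 4 arrays fitted alone, and 856 to 1473 with 1 array left out. The 706 changes of at least 2-fold became 408 with a pseudocount of 32 and 464 with the 4 arrays alone. With a pseudocount of 32, 230 changes lasted, against 348, 130 turned back, against 246, and 39 crossed over, against 78. With 1 array left out, the number called in both organs was 12 to 20, and the difference between organs was called for 467 to 904 probe sets. With shoot arrays only there were 991 calls, but the 720 higher became 424 and the 130 rises that turned back 86; with the 4 arrays alone 179 were higher and 365 lower. The total was 1367 without a filter and 1516 with the replicate block, which removed no call of a named gene. A crossed replicate block, chosen after seeing the data, gave 1529 calls. Of 94 genes that were called at 1 h and were named or in a list, 0 reversed under any setting. The stricter filter tested 88 of them, and named genes without a call at 1 h were not followed. Of the 94, 28 no longer passed with the 4 arrays alone, 11 with shoot arrays only and 9 with a pseudocount of 1. At most 4 no longer passed under the other planned settings that kept all arrays. What lies behind these shifts was not tested; fewer arrays also leave fewer degrees of freedom.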
